A study of Mus musculus with 12 samples.

Results

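Germline and meiosis genes are 38 genes that were chosen by name for their known work in germ cells, and each was matched by symbol to 1 of the 42450 gene identifiers of the polyA+ RNA table. By role they were 6 germ cell regulators, 9 genes of the piRNA pathway and of transposon control, 8 genes of the synaptonemal complex and its axis, 3 subunits of meiotic cohesin, 8 genes of recombination and telomere attachment and 4 other germ cell proteins. Of these, 36 were among the 19410 genes with enough counts to be tested, while *Asz1*, a piRNA pathway factor, and *Spo11*, the enzyme that makes meiotic double-strand breaks, were not. The rule that names them holds no expression value.

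The cells were wild-type E14tg2a.4 mouse embryonic stem cells (ESC); before collection they were kept in serum-free ESGRO medium with LIF. They were transfected with 50 nM siRNA, either a pair of siRNAs against *Srrm2* (E8/9 and E13, Srrm2-KD) or a control siRNA against firefly luciferase (Gl2-KD), and collected at 24 h or 72 h. The 72 h cells received the same siRNA a second time 24 h after the first, so that time in culture and the second transfection cannot be told apart. Each of the 4 groups had 1 library from each of 3 independent experiments, 12 libraries in all.

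In mammals, germ cells switch on a set of genes that somatic cells and ESC keep largely silent. Many of these genes have promoters rich in CG pairs that are held silent by DNA methylation, and some are also bound by repressor complexes that recognise the E-box CACGTG (MAX and MGA) or the E2F site GCGGGAA (E2F6). ESC are known to transcribe a subset of them at low to moderate levels. During meiosis, cohesin with the subunits REC8, STAG3 and SMC1B holds sister chromatids on an axis built of SYCP2, SYCP3 and HORMAD proteins, and SYCP1 with the SYCE proteins then joins homologous axes. PIWI proteins with their piRNAs, and partners such as DDX4, MAEL and MOV10L1, keep transposons silent in the same cells.

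Levels are given as CPM (counts scaled to a library size of 1000000), made from the deposited estimated counts. Library totals ran from 73933196 to 153343831 estimated counts. The target gene *Srrm2*, with CPM named here for experiments 1, 2 and 3 in that order, had 911, 496 and 449 in Gl2-KD at 24 h, 517, 154 and 199.8 in Srrm2-KD at 24 h, 962, 479 and 442 in Gl2-KD at 72 h and 461, 182 and 217 in Srrm2-KD at 72 h. It was lower in Srrm2-KD in all 6 pairs, with fitted levels of 43.0% of the control at 24 h and 44.6% at 72 h, but its adjusted p was 0.066 and 0.0991 (edgeR quasi-likelihood test). The ESC factor *Pou5f1* lay between 1149 and 1956 CPM. Summed levels of markers of other cells were 1.99 to 4.45 CPM for 5 primitive endoderm genes, 0.982 to 2.68 CPM for 4 trophoblast genes, 1.005 to 8.83 CPM for 5 gonadal somatic genes and 3.89 to 24.6 CPM for 4 fibroblast genes.

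Promoter windows from RefSeq (GRCm38.p6), which hold 250 bases before and 50 bases after the start of a gene, were given for 31 of the 38 genes. These windows were rich in CG pairs. Their median was 20 pairs per 300 bases, with a range from 3 in *Nanos3*, a germ cell RNA-binding factor, to 38 in *Ddx4*, the germ cell RNA helicase, while the median over all 27025 genes with a window was 8. At least 15 pairs were found for 25 of the 31 genes (80.6%), against 37.1% of all genes. The median GC content of the windows was 60.7% against 53.3%.

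**Figure D1:**
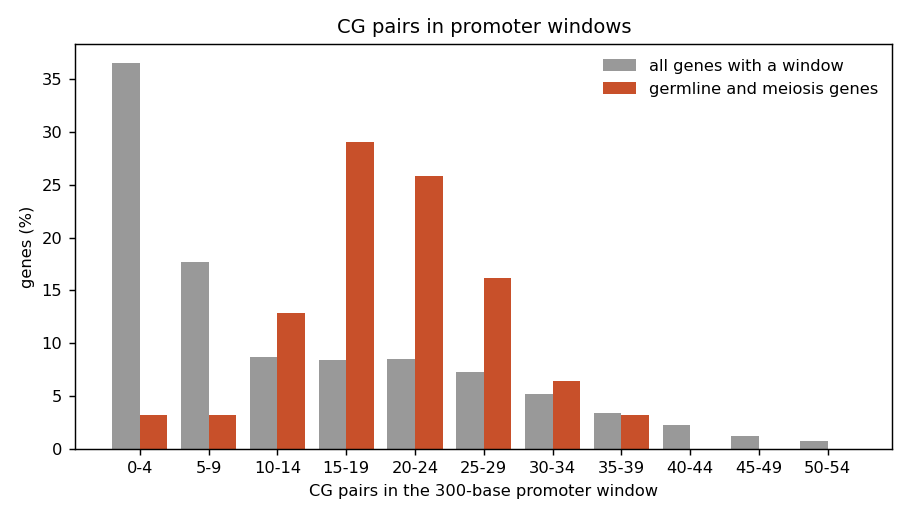
Bars give the percent of genes (y axis) by the number of CG pairs in the 300-base promoter window (x axis), in grey for all 27025 genes with a window and in orange for the 31 germline and meiosis genes with one. Most of the orange bars lie at 15 pairs or more.

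The E-box CACGTG, which reads the same on both strands, was present in the windows of 13 of the 31 genes (41.9%), against 8.09% of all genes and 12.8% of the 10038 genes with at least 15 CG pairs. The E2F site GCGGGAA, on either strand, was present in 10 of 31 (32.3%), against 5.29% of all genes and 11.4% of the CG-rich ones. Both were found in *Ddx4*, *Hormad1*, *Slc25a31*, *Stag3*, *Syce2* and *Sycp3*, which are 6 of 31 (19.4%), against 0.611% of all genes and 1.43% of the CG-rich ones. The motif CNCCTCAG, on either strand, was present in 8 of 31 (25.8%) and in 9.12% of all genes. No motif contains another, and a match says only that the letters are there. The genes were picked for known roles, among them genes known to be silenced through such sites, so these shares describe the set and were not tested.

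The 180 bases before the start are shown for the 2 genes that passed the test with time (*Sycp3* and *Stag3*), for *Smc1b*, which passed it when experiment 1 was left out, and for *Ddx4* and *Hormad1*, which hold both motifs. Capitals mark CACGTG and GCGGGAA or its reverse complement, and all stretches read 5′ to 3′ on the strand of the gene (GRCm38.p6).
Sycp3, chr10:88459407-88459586, plus strand: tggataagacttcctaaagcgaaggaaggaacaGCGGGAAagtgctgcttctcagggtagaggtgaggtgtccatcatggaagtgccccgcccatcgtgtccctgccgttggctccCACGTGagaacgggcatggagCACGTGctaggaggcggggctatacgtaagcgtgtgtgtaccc
Stag3, chr5:138280329-138280508, plus strand: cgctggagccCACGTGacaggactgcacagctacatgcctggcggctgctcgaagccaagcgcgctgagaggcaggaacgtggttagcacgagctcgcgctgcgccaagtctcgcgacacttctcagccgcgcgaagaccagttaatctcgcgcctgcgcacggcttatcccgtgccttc
Smc1b, chr15:85131958-85132137, minus strand: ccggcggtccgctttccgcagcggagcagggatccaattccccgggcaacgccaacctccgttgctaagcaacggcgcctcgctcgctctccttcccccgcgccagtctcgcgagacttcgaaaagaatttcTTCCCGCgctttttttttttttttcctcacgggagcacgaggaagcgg
Ddx4, chr13:112652311-112652490, minus strand: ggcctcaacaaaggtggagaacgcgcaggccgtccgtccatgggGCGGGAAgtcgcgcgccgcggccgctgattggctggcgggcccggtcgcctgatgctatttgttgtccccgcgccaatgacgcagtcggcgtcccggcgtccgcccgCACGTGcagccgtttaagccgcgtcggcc
Hormad1, chr3:95559497-95559676, plus strand: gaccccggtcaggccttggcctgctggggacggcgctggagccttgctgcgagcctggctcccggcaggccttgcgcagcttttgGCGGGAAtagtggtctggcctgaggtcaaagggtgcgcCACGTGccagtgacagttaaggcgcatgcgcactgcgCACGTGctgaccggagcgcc
*Sycp3* and *Hormad1* each held 2 copies of CACGTG, starting 64 and 43 bases before the start in *Sycp3* and 57 and 20 bases before it in *Hormad1*. *Ddx4* held CACGTG 29 bases and GCGGGAA 136 bases before its start. In *Stag3* the marked E-box lies 170 bases before the start, and its E2F site crosses the start and is not in the stretch. All these starts are those of RefSeq and can differ from the GENCODE positions given for genes elsewhere. The GENCODE span of *Stag3* begins at chr5:138280240, so its whole stretch lies inside that span. Most of the *Ddx4* stretch also lies inside its GENCODE span, which begins at chr13:112652475 on the minus strand. *Smc1b* held the E2F site, on the other strand, 48 bases before its start and no E-box.

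The genes ranged widely in level, and not all were silent. Mean CPM over the 12 libraries was at least 10 for 17 of the 38 genes, from 1 to below 10 for 13 and below 1 for 8. Per kb of the longest coding transcript, the median of the 36 tested genes was 2.88 CPM, against 2.31 CPM over 19314 tested genes with a length. The highest was *Sycp3* at 122 CPM per kb, followed by *Syce2* at 45.8, *Tex19.1* at 37.3, *Tuba3a* at 35.0, *Zcwpw1* at 28.6, *Stag3* at 19.99 and *Hormad1* at 17.9 CPM per kb. The lowest of those tested were *Brdt*, a testis bromodomain protein, at 0.166, *Stra8*, the factor that starts meiosis, at 0.152 and *Mei1* at 0.0765 CPM per kb. *Asz1* was at most 0.0966 CPM and *Spo11* at most 0.0428 CPM in any library.

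Per kb, the axis protein *Sycp3* and the cohesin subunit *Stag3* were well above *Stra8*, *Dazl* and *Prdm9*, but levels did not follow role. *Sycp1* and *Sycp2*, of the synaptonemal complex and its axis, had 0.217 and 0.444 CPM per kb. These were below *Dazl* at 1.996 CPM per kb, and the regulator *Mybl1* had 4.57 CPM per kb. In experiments 1, 2 and 3 *Stra8* had 0.343, 0.1996 and 0.265 CPM in Gl2-KD and 0.308, 0.225 and 0.360 CPM in Srrm2-KD at 24 h, with all 12 libraries between 0.123 and 0.450 CPM. *Dazl*, the RNA-binding regulator of germ cell fate, lay between 2.69 and 9.12 CPM, and at 72 h it had 7.93, 8.08 and 4.53 CPM in Gl2-KD and 7.43, 8.38 and 2.69 CPM in Srrm2-KD. Both *Dazl* groups at 72 h overlapped and were lowest in experiment 3. *Prdm9*, which marks recombination sites, had 1.68, 1.45 and 0.968 CPM in Gl2-KD and 1.596, 0.467 and 2.13 CPM in Srrm2-KD at 24 h, and 1.84, 2.08 and 1.57 CPM and 2.14, 1.52 and 2.31 CPM in the same groups at 72 h, so that all 4 groups overlapped. *Tuba3a* has a near-identical copy, *Tuba3b*, so that its level is uncertain. *Syce2* overlaps *Gcdh* (mean 53.2 CPM) and *Sycp3* overlaps *Chpt1* (mean 8.70 CPM), each on the opposite strand, where reads may be shared.

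**Figure D2:**
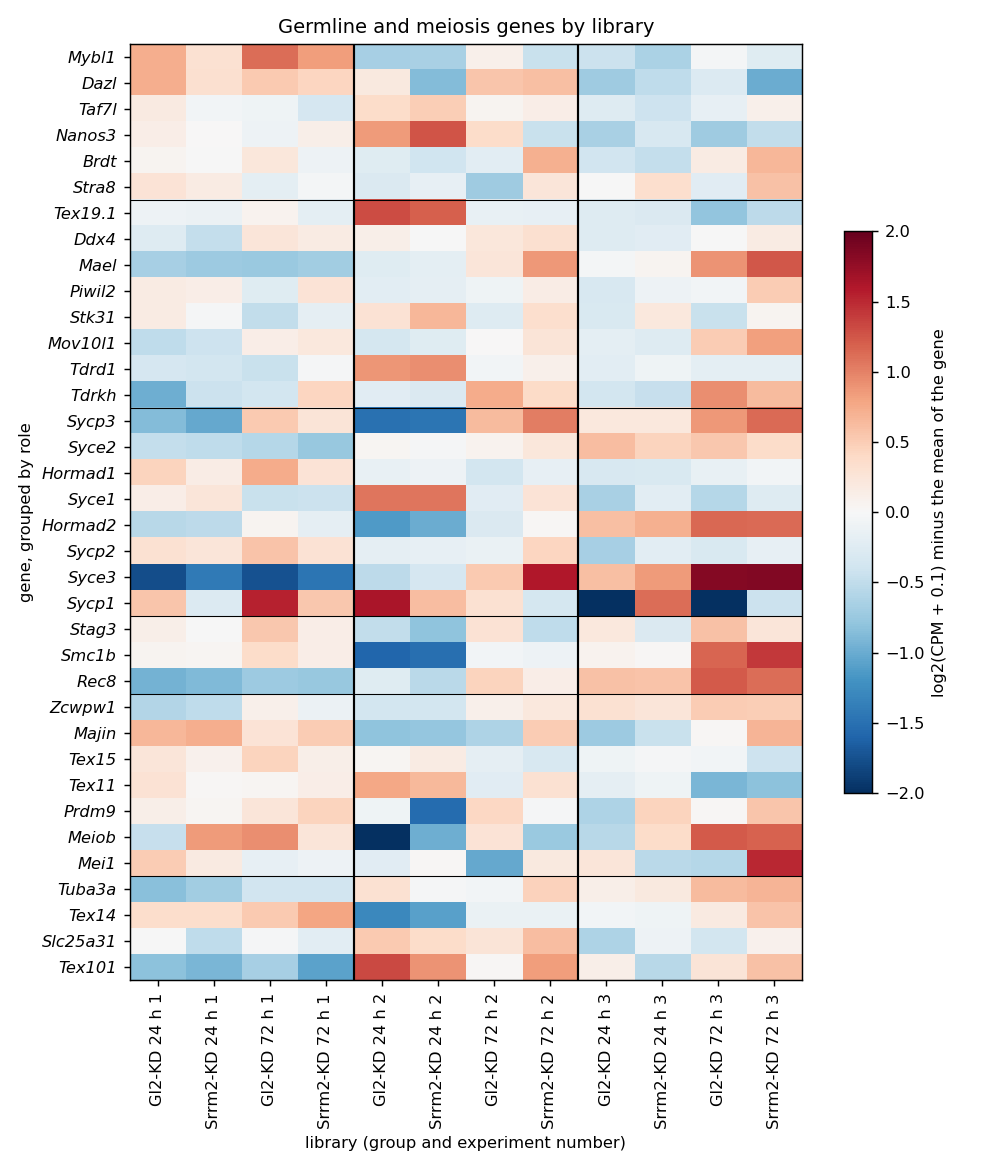
Rows are the 36 tested genes grouped by role and ordered by mean level, columns are the 12 libraries ordered by experiment (1, 2, 3), and colour gives log2(CPM + 0.1) minus the mean of the gene, red above and blue below it. The 4 libraries of experiment 1 are low for *Syce3*, *Mael* and *Rec8* and high for *Mybl1*, and *Sycp3* is redder at 72 h than at 24 h in each experiment.

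Libraries of experiment 1 stood apart from those of experiments 2 and 3. Of the 36 tested genes, 2 had all 4 libraries of experiment 1 above the 8 others (16.7% of all genes tested) and 6 had all 4 below (13.7% of all genes tested). The 2 above were *Mybl1*, a transcription factor of meiotic spermatocytes, with 25.8 to 44.98 CPM against 13.1 to 22.4 CPM, and *Hormad1*, with 29.1 to 44.1 CPM against 20.5 to 25.3 CPM. The 6 below were *Mael*, *Syce2*, *Syce3*, *Tex101*, *Rec8* and *Tuba3a*. *Syce3*, a small central-element protein, had 0.366 to 0.499 CPM in experiment 1 and 1.00 to 5.65 CPM in the others. *Rec8*, the kleisin subunit of meiotic cohesin, had 4.94 to 5.77 CPM against 6.60 to 22.8 CPM.

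The log2 ratio of experiment 1 to the others was larger for genes with longer transcripts, with a Spearman rho of 0.436 across the 36 genes. The same rho was 0.616 across 12834 tested genes above 1 CPM with a length. Both are descriptions across genes of the same libraries, and genes are not independent. The part of RNA quality or library making in these differences was not tested. The experiment was a term in each fit.

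**Figure D3:**
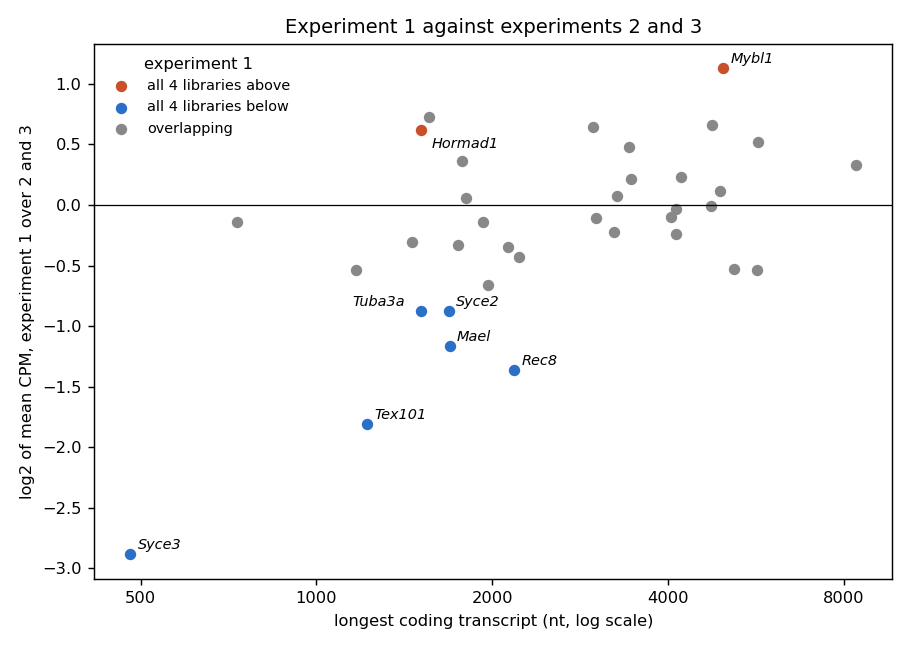
Each point is 1 of the 36 tested genes, placed by the length of its longest coding transcript (x axis, nt, log scale) and by the log2 ratio of its mean CPM in the 4 libraries of experiment 1 to that in the 8 of experiments 2 and 3 (y axis). The 6 genes with all libraries of experiment 1 below the others (blue) have transcripts of 480 to 2184 nt. Those with all above (orange) are *Mybl1* at 4980 nt and *Hormad1* at 1511 nt, the latter within the range of the blue genes.

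The comparison of 72 h with 24 h asked what changed with time in culture and repeated transfection. In Gl2-KD cells *Sycp3* and *Stag3* rose, by 1.39 ± 0.30 (SE, n = 3 per group) and by 0.54 ± 0.12 on the log2 scale. In Srrm2-KD cells *Sycp3* rose by 1.58 ± 0.30. The edgeR test called none of the 36 tested genes of the set lower at an adjusted p below 0.05, whereas DESeq2 called *Tex11* and *Stk31* lower in Gl2-KD. These were 2 of 36 genes higher and 0 lower in Gl2-KD, against 0.747% and 0.706% of all 19410 genes, and 1 higher and 0 lower in Srrm2-KD, against 0.191% and 0.361%. The adjusted p was 0.0488 for *Sycp3* and 0.0498 for *Stag3* in Gl2-KD and 0.0492 for *Sycp3* in Srrm2-KD (edgeR), all close to the threshold.

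*Sycp3* encodes the lateral-element protein of the synaptonemal complex and lies at chr10:88459569-88473236 (GRCm38). In experiments 1, 2 and 3 it had 65.0, 42.4 and 138 CPM in Gl2-KD at 24 h and 170.5, 186 and 217 CPM at 72 h. In Srrm2-KD it had 58.7, 43.1 and 138 CPM at 24 h and 143, 241 and 262 CPM at 72 h. The 72 h libraries were all above the 24 h libraries with either siRNA, and experiment 3 was already high at 24 h. In Gl2-KD the call was lost when any 1 of its own 6 libraries, or the Srrm2-KD library of experiment 2 at 24 h or of experiment 1 at 72 h, was left out. The log2 change then stayed between 1.10 and 1.64, with an adjusted p of 0.0512 to 0.246. In Srrm2-KD the call was lost on leaving out any 1 library except the Gl2-KD library of experiment 3 at 72 h, with log2 changes of 1.19 to 1.82 and adjusted p of 0.0548 to 0.319.

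*Stag3*, the meiosis-specific subunit that binds the cohesin ring, lies at chr5:138280240-138312393 (GRCm38). It had 87.3, 57.2 and 93.3 CPM in Gl2-KD at 24 h and 118, 99.1 and 122 CPM at 72 h, with no overlap between the times. In Srrm2-KD it had 80.5, 46.0 and 66.0 CPM at 24 h and 88.4, 57.0 and 95.8 CPM at 72 h, where the groups overlapped and the log2 change was 0.32 ± 0.12 (adjusted p = 0.209, edgeR). Its call in Gl2-KD was kept on leaving out the Gl2-KD library of experiment 1 at 72 h or the Srrm2-KD libraries of experiments 1 or 3 at 24 h, and was lost for each of the other 9 libraries, with log2 changes of 0.41 to 0.60 and adjusted p of 0.0565 to 0.262.

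All 3 cohesin subunits were higher at 72 h in all 6 pairs of libraries. *Smc1b*, the meiotic SMC subunit, had 21.4, 6.84 and 21.7 CPM in Gl2-KD at 24 h and 26.6, 19.97 and 46.2 CPM at 72 h. In Srrm2-KD it had 21.2, 7.17 and 20.96 CPM at 24 h and 22.6, 19.203 and 55.0 CPM at 72 h. The step was small in experiment 1 and larger in the other 2, and the log2 change was 0.98 ± 0.26 with both siRNAs (adjusted p = 0.0906 and 0.115, edgeR). *Rec8* changed by 0.53 ± 0.16 in Gl2-KD and by 0.44 ± 0.16 in Srrm2-KD on the same scale (adjusted p = 0.124 and 0.205, edgeR).

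**Figure D4:**
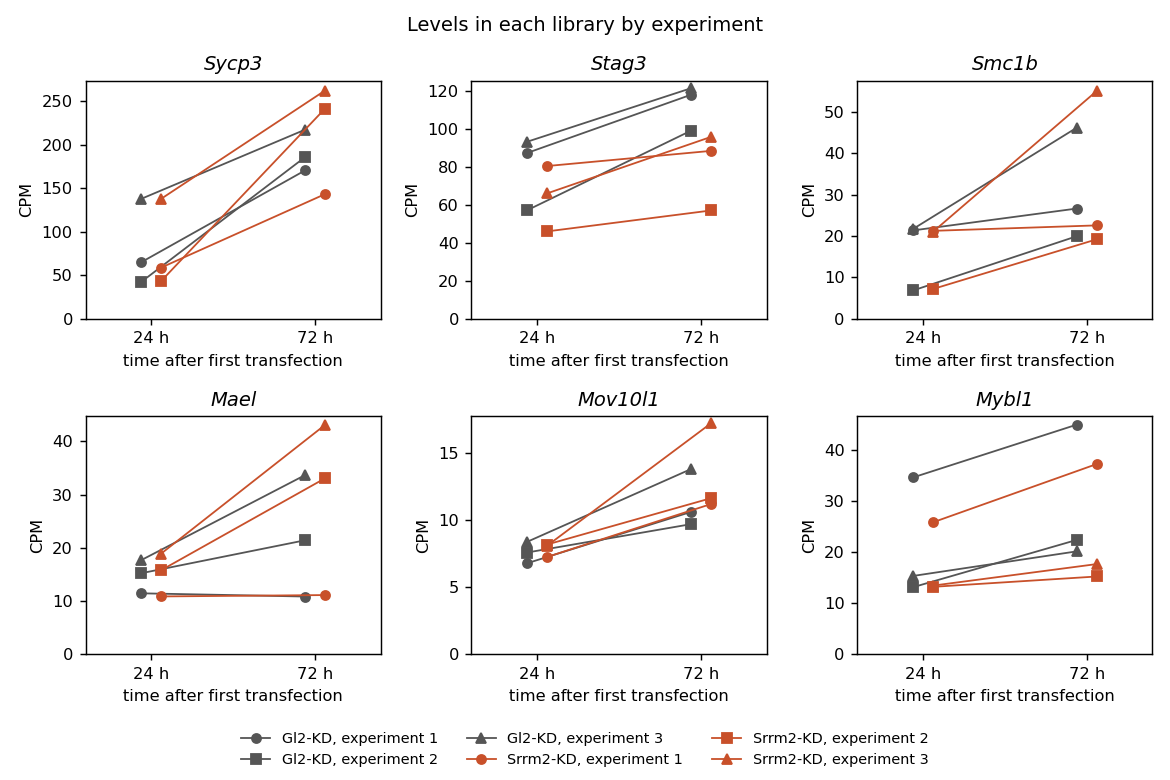
Each panel gives 1 gene, with CPM on the y axis and time on the x axis. Lines join the 24 h and 72 h libraries of 1 experiment (circle 1, square 2, triangle 3), in grey for Gl2-KD and orange for Srrm2-KD. *Sycp3* climbs in all 6 lines, *Mael* climbs in the lines of experiments 2 and 3 and stays between 10.8 and 11.4 CPM in those of experiment 1, and the *Mybl1* lines of experiment 1 lie above the others.

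Among genes of the piRNA pathway, *Mov10l1*, the helicase that loads piRNA precursors, had 6.79, 7.59 and 8.39 CPM in Gl2-KD at 24 h and 10.6, 9.71 and 13.8 CPM at 72 h. In Srrm2-KD it had 7.25, 8.18 and 8.08 CPM at 24 h and 11.2, 11.6 and 17.2 CPM at 72 h. The times did not overlap with either siRNA, and the log2 change was 0.58 ± 0.15 (adjusted p = 0.0798, edgeR) and 0.74 ± 0.15 (adjusted p = 0.0576, edgeR). *Ddx4* had 16.9, 22.0 and 16.8 CPM in Gl2-KD at 24 h and 23.9, 23.7 and 20.1 CPM at 72 h, and in Srrm2-KD 14.5, 20.1 and 17.2 CPM and then 22.7, 25.2 and 22.5 CPM. It was higher at 72 h in each pair, by 0.45 ± 0.12 in Srrm2-KD on the log2 scale (adjusted p = 0.115, edgeR).

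*Mael*, which works in piRNA biogenesis, followed the experiment. It had 11.4 CPM at 24 h and 10.8 CPM at 72 h in experiment 1 with Gl2-KD, and 10.9 and 11.1 CPM with Srrm2-KD. In experiments 2 and 3 it went from 15.2 and 17.7 CPM to 21.4 and 33.7 CPM in Gl2-KD, and from 15.8 and 18.9 CPM to 33.05 and 43.1 CPM in Srrm2-KD. The fitted change was 0.44 in Gl2-KD and 0.79 ± 0.23 in Srrm2-KD on the log2 scale (adjusted p = 0.133 for the latter, edgeR). When experiment 1 was left out, *Mael* and *Smc1b* were the 2 genes of the 36 called with Gl2-KD and also the 2 called with Srrm2-KD (1.98% and 0.711% of 18984 genes). *Sycp3* and *Stag3* were then not called. Without experiment 2, 0 of the 36 were called with either siRNA (0% of 19532 genes). Without experiment 3, 0 were called with Gl2-KD (0.44% of 19759 genes) and 1, *Sycp3*, with Srrm2-KD (0.455%).

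*Tex19.1*, a placental and germ cell protein that restrains transposons, had a single high point. It had 146 and 135 CPM in the 24 h libraries of experiment 2 (Gl2-KD and Srrm2-KD), while the other 10 libraries lay between 34.1 and 61.9 CPM. These were 54.8 and 49.2 CPM in Gl2-KD and 54.3 and 48.4 CPM in Srrm2-KD at 24 h in experiments 1 and 3, and 61.9, 53.3 and 34.1 CPM in Gl2-KD and 51.5, 52.6 and 40.8 CPM in Srrm2-KD at 72 h in experiments 1, 2 and 3. *Syce1* and *Tdrd1* were also highest in those libraries, with 28.6 and 28.4 CPM and with 4.56 and 4.74 CPM. In these 3 genes the Gl2-KD and Srrm2-KD values of that experiment lay close together at 24 h.

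Among the genes of recombination, *Zcwpw1*, a reader of PRDM9 marks, had 40.9, 47.8 and 75.8 CPM in Gl2-KD at 24 h and 65.9, 66.0 and 87.2 CPM at 72 h. In Srrm2-KD it had 43.2, 47.6 and 72.9 CPM and then 56.6, 71.5 and 86.3 CPM, higher in each pair but with overlapping groups (log2 change 0.45 ± 0.11 and 0.41 ± 0.11). *Meiob*, a single-strand DNA-binding factor, changed by 2.75 ± 0.68 in Gl2-KD, from 0.263, 0 and 0.237 CPM to 0.848, 0.498 and 1.07 CPM (adjusted p = 0.0683, edgeR). In Srrm2-KD *Meiob* changed by 0.19 ± 0.62 (adjusted p = 0.912, edgeR), from 0.795, 0.153 and 0.540 CPM to 0.486, 0.198 and 1.02 CPM. The estimated counts of *Meiob* ran from 1.18e-08 to 140 per library, the lowest in Gl2-KD of experiment 2 at 24 h. With 1 Gl2-KD library near 0 at 24 h, the size of the change is poorly set. *Mybl1* had 34.6, 13.1 and 15.3 CPM in Gl2-KD at 24 h and 44.98, 22.4 and 20.2 CPM at 72 h, and 25.8, 13.2 and 13.4 CPM followed by 37.2, 15.2 and 17.7 CPM in Srrm2-KD. Its change of 0.51 ± 0.11 in Gl2-KD had an adjusted p of 0.0524 and that of 0.38 ± 0.11 in Srrm2-KD one of 0.149 (edgeR). *Tex14*, a protein of germ cell bridges, changed by 0.68 ± 0.17 in Srrm2-KD (adjusted p = 0.104, edgeR), from 37.7, 13.9 and 27.9 CPM to 51.4, 27.1 and 44.03 CPM, while in Gl2-KD it had 37.7, 12.1 and 28.6 CPM and then 42.8, 26.9 and 33.6 CPM. Its lowest libraries were those of experiment 2 at 24 h with either siRNA.

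More of the genes were higher than lower at 72 h. In Gl2-KD 13 of 36 had an unadjusted p below 0.05 and were higher (9.59% of all genes) and 3 were lower (7.21%), namely *Tex11*, *Stk31* and *Syce1*. In Srrm2-KD 17 were higher (7.72%) and 1, *Syce1*, was lower (8.54%). The median log2 change of the 36 genes was 0.21 in Gl2-KD and 0.36 in Srrm2-KD, beside 0.02 and 0.00 over all genes. In Gl2-KD 16 genes were higher in all 3 experiments (20.2% of all genes) and 5 lower (16.2%), and in Srrm2-KD 17 were higher (16.2%) and 3 lower (16.6%). The 13 genes higher at 72 h in all 6 pairs (36.1% of the 36, against 8.92% of all genes) were *Rec8*, *Tex14*, *Mov10l1*, *Sycp3*, *Hormad2*, *Ddx4*, *Smc1b*, *Mybl1*, *Stag3*, *Zcwpw1*, *Tdrkh*, *Prdm9* and *Sycp2*. *Stk31* was the 1 gene lower in all 6 pairs (7.96% of all genes).

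Calls depended on the tool. DESeq2 called 12 of the 36 genes in Gl2-KD, 10 of them higher, against 3.72% of all genes, and 2 lower, *Tex11* and *Stk31*, against 3.17%. In Srrm2-KD it called 11 higher, against 2.57% of all genes, and 0 lower, against 2.90%. limma-voom called 3, *Sycp3*, *Mybl1* and *Stag3*, in Gl2-KD (2.48%) and 2, *Mov10l1* and *Sycp3*, in Srrm2-KD (1.33%). With RLE size factors in place of TMM edgeR called 0 of them in both, against 1.32% of all genes in Gl2-KD and 0.412% in Srrm2-KD. In bulk RNA, more cells with a transcript and more transcript per cell cannot be told apart.

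**Figure D5:**
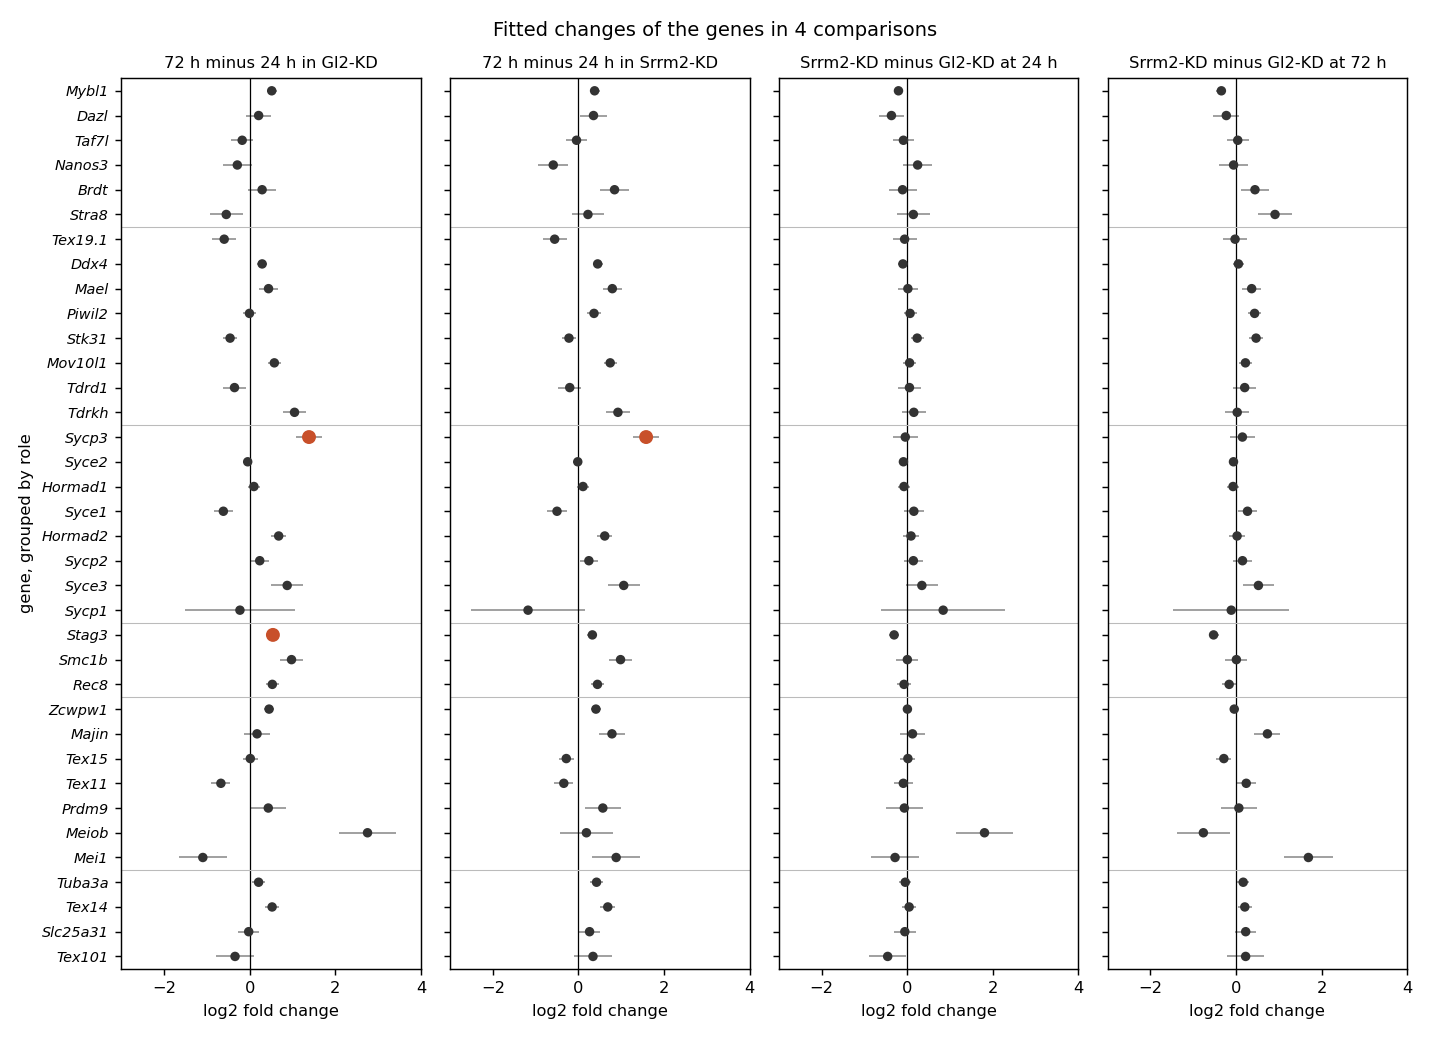
Rows are the 36 tested genes grouped by role. Points give the fitted log2 fold change (x axis) with bars of 1 SE in 4 comparisons, and large orange points mark an adjusted p below 0.05, which are *Sycp3* and *Stag3* for time in Gl2-KD and *Sycp3* for time in Srrm2-KD. No point is orange in the panels of Srrm2-KD against Gl2-KD.

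The comparison of Srrm2-KD with Gl2-KD asked whether lower *Srrm2* moved these genes. It shares its libraries with the comparisons over time. At 24 h 0 of 36 genes were called (0% of all genes), and 2 had an unadjusted p below 0.05 (2.62% of all genes), *Meiob* with a log2 change of 1.80 ± 0.66 at under 1 CPM and *Stag3* with -0.31 ± 0.12. DESeq2 and limma-voom also called 0 of the 36 (0.129% and 0.0103% of all genes). The next smallest p at 24 h were those of *Mybl1* (-0.20 ± 0.11), *Stk31* (0.23 ± 0.15) and *Dazl* (-0.37 ± 0.30), all at an adjusted p of 1.0 (edgeR). *Dazl* had 9.12, 6.27 and 3.29 CPM in Gl2-KD and 6.81, 2.96 and 3.80 CPM in Srrm2-KD at 24 h. *Meiob* had 0.795, 0.153 and 0.540 CPM in Srrm2-KD at 24 h and 0.486, 0.198 and 1.02 CPM at 72 h, beside the Gl2-KD values given above for time. The median log2 change was 0.00 for the 36 genes and 0.01 for all genes.

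At 72 h 0 of 36 genes were called by edgeR (0% of all genes) and 0 by limma-voom (0.0206%), while DESeq2 called 1, *Stag3* (2.79%). At an unadjusted p below 0.05, 5 were higher in Srrm2-KD (5.01% of all genes), which were *Stk31*, *Majin*, *Stra8*, *Piwil2* and *Mei1*, and 2 were lower (7.86%), which were *Stag3* and *Mybl1*. In all 3 experiments 11 genes were higher (18.8% of all genes) and 5 lower (23.1%). The median log2 change of the 36 was 0.11, beside -0.02 for all genes.

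*Stag3* had the smallest p at 72 h. Its 3 Srrm2-KD libraries, with 88.4, 57.0 and 95.8 CPM, all lay below the 3 Gl2-KD libraries, with 118, 99.1 and 122 CPM, a log2 change of -0.52 ± 0.12 with an adjusted p of 0.144 (edgeR). It was lower in Srrm2-KD in all 6 pairs over both times. When each experiment at each time was its own block, edgeR called *Stag3* and *Piwil2* at 72 h (3.73% of all genes were called). *Piwil2*, a PIWI protein, had 11.7, 12.9 and 13.2 CPM in Gl2-KD and 16.6, 15.2 and 19.5 CPM in Srrm2-KD, a log2 change of 0.43 ± 0.15 (adjusted p = 0.284, edgeR) with no overlap. At 24 h it had 15.4, 11.8 and 11.02 CPM and 15.1, 12.1 and 12.7 CPM in the same groups, which overlapped.

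*Stk31*, a germ cell kinase-like tudor protein, had 8.94, 10.5 and 9.16 CPM in Gl2-KD at 72 h and 11.04, 15.8 and 13.1 CPM in Srrm2-KD, higher in each experiment and without overlap (log2 change 0.47 ± 0.15, adjusted p = 0.257, edgeR). At 24 h it had 14.01, 15.4 and 10.2 CPM in Gl2-KD and 12.4, 19.9 and 14.5 CPM in Srrm2-KD, lower in Srrm2-KD in experiment 1 and higher in the other 2. *Mybl1* was lower in each experiment by -0.34 ± 0.11 with overlapping groups (adjusted p = 0.268, edgeR). The paper, whose edgeR fit held the RNA processing day as a covariate, lists *Mybl1* among its differentially expressed genes at 72 h. *Mei1*, needed for meiotic breaks, changed by 1.69 ± 0.58, from 0.236, 0.0843 and 0.152 CPM in Gl2-KD to 0.249, 0.330 and 0.968 CPM in Srrm2-KD, and had 0.434, 0.221 and 0.347 CPM and 0.327, 0.282 and 0.159 CPM in the same groups at 24 h. Its 72 h groups did not overlap, though in experiment 1 they were close. *Majin*, which ties telomeres to the nuclear membrane, had 5.11, 2.70 and 4.26 CPM in Gl2-KD and 6.01, 5.99 and 6.78 CPM in Srrm2-KD at 72 h, and 6.71, 2.36 and 2.49 CPM and 7.03, 2.42 and 3.05 CPM at 24 h. *Stra8* went from 0.220, 0.123 and 0.213 CPM in Gl2-KD to 0.255, 0.330 and 0.450 CPM in Srrm2-KD, which is 16 to 50 estimated counts per library over the 12 libraries. At these counts the size of a change is poorly set. The summed level of the 5 gonadal somatic markers ran from 1.005 to 1.87 CPM in Gl2-KD at 72 h and from 2.305 to 8.83 CPM in Srrm2-KD. Most of the sum was *Amh*, with a mean of 0.389 CPM in Gl2-KD and 3.89 CPM in Srrm2-KD, and *Wt1*, with 0.856 and 2.20 CPM. *Sox9* had 0.111 CPM in both, and *Cyp17a1* and *Foxl2* were near 0. Of the 3 that passed the filter 0 were called by edgeR (0% of all genes) and 2 were higher at an unadjusted p below 0.05 (5.01%). Their part in the result was not tested.

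The effect of Srrm2-KD at 72 h minus that at 24 h was called for 0 of 36 genes by edgeR (0% of all genes), by DESeq2 (0.0103%) and by limma-voom (0%), and 2 had an unadjusted p below 0.05 (1.64% of all genes). These were *Meiob* (-2.57 ± 0.91) and *Mei1* (1.98 ± 0.80), both low, followed by *Piwil2* (0.37 ± 0.22), *Majin* (0.61 ± 0.43) and *Stra8* (0.77 ± 0.54). For *Stag3* the difference between the times was -0.22 ± 0.17, so its lower level in Srrm2-KD was not shown to differ between 24 h and 72 h.

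Other genes of the germline and of the machinery known to silence it were read from the same fit. Of 58 further germline and meiosis genes, 49 were tested, and with time 2 were called higher and 1 lower with both siRNAs. *Rec114*, a partner of the meiotic break machinery, rose by 1.31 ± 0.21 in Gl2-KD and by 1.18 ± 0.21 in Srrm2-KD, *Cpeb1*, a regulator of oocyte mRNAs, rose by 1.01 and 1.08, and *Zp3*, an egg coat protein, fell by 1.77 and 1.41 on the log2 scale. At an unadjusted p below 0.05, 12 of the 49 were higher and 2 lower in Gl2-KD (9.59% and 7.21% of all genes). In Srrm2-KD 12 were higher and 1 lower (7.72% and 8.54%). The median log2 change of the 49 genes was 0.26 in Gl2-KD and 0.16 in Srrm2-KD. For Srrm2-KD against Gl2-KD 0 of the 49 were called at 24 h and at 72 h (0% of all genes at both times).

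Of 7 primordial germ cell genes, 4 TET and base-excision genes of demethylation and 20 repressors, 0 were called by edgeR in any of the 5 comparisons. Over all genes the share called was 1.45% with time in Gl2-KD, 0.551% with time in Srrm2-KD and 0% in the other comparisons. The primordial germ cell list holds *Nanos3*, a gene of the set itself, and *Dnd1*, also among the further germline genes above. In Gl2-KD 6 of the 20 repressors had an unadjusted p below 0.05 and a lower value at 72 h, against 7.21% of all genes, and 0 a higher one, with a median log2 change of -0.16. In Srrm2-KD these were 8 of 20 lower, against 8.54% of all genes, and 0 higher, with a median of -0.20. The 4 repressor subunits with known binding at germline promoters had log2 changes with time in Gl2-KD of -0.14 ± 0.42 for *E2f6*, 0.06 ± 0.15 for *Mga*, -0.34 ± 0.12 for *L3mbtl2* and -0.25 ± 0.11 for *Pcgf6*. Of the 5 DNA methylation genes, *Dnmt3l*, the cofactor of the de novo enzymes, fell by 1.09 ± 0.18 in Gl2-KD (adjusted p = 0.0245, edgeR), from 293, 399.8 and 283 CPM to 194, 119.8 and 146 CPM. In Srrm2-KD its change was -0.64 ± 0.18 (adjusted p = 0.127, edgeR). *Dnmt1* and *Uhrf1*, which copy methylation after replication, changed by 0.00 ± 0.11 and -0.13 ± 0.09 with time in Gl2-KD, and *Dnmt3a* and *Dnmt3b* by -0.20 ± 0.19 and -0.47 ± 0.16. At 72 h *Dnmt3a* differed between Srrm2-KD and Gl2-KD by 0.84 ± 0.19 (adjusted p = 0.144, edgeR).

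Among markers of a rare two-cell-like state, the 3 tested *Zscan4* genes were called lower at 72 h in Gl2-KD (0.706% of all genes) and 1 of them in Srrm2-KD (0.361%). The sum of 4 markers was 7.42 to 34.7 CPM at 24 h and 3.17 to 4.28 CPM at 72 h in Gl2-KD. In Srrm2-KD it was 9.32 to 35.1 CPM and then 5.64 to 11.3 CPM, with overlapping times. The 4 germ cell markers *Ddx4*, *Dazl*, *Sycp3* and *Stra8* are themselves germline and meiosis genes of the set, so their sum repeats values given above. They summed to 70.9 to 158 CPM at 24 h and 203 to 242 CPM at 72 h in Gl2-KD, of which *Sycp3* made up the most. Whether the fall of the *Zscan4* genes is linked to the moves of the germline and meiosis genes was not tested.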

How the data were processed

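PolyA+ RNA-seq of 12 libraries was analysed. The authors pseudo-aligned 100-bp paired reads to the GENCODE M24 transcriptome with Kallisto 0.46.1 and deposited estimated counts per gene, not normalized for library size. The sources used here do not give the setting for strand, so overlapping genes may share reads.

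Counts were rounded. Genes passing filterByExpr (minimum count 10, minimum total 15) were fitted in R 4.3.3 with edgeR 4.0.16 (TMM, a term for each of the 4 groups, experiment as block, glmQLFit with legacy=TRUE, glmQLFTest), with p-values adjusted by Benjamini-Hochberg over 19410 genes and a threshold of 0.05. Residual degrees of freedom were 6 and the common coefficient of variation 0.22. The authors fitted the RNA processing day as a covariate, which the labels do not give, so experiment stood in its place here. Same-numbered libraries came from 1 experiment; after removal of group means their 18 correlations across genes were 0.281 to 0.747, those of the 36 other pairs -0.628 to 0.231. DESeq2 1.42.0 and limma 3.58.1 were alternatives. The script was tested on simulated data. Symbols, positions and lengths came from GENCODE M21 (GRCm38), which matched 42156 of 42450 identifiers, and promoters from RefSeq.

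The genes and lists were chosen with earlier results of these data known. Library values are given for 9 named genes and for the 5 with the smallest p in each comparison.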

Additional observations from a re-analysis of the deposited data

How the results depend on the processing

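For Srrm2-KD against Gl2-KD, 0 of the 36 genes were called at 24 h under all 26 alternatives, and the difference between the times likewise gave 0 under all 25. At 72 h the count was 0 except with DESeq2 (1) and with a replicate block of experiment and time point together (2); the range over left-out libraries and experiments was 0 to 0. For time in Gl2-KD the count was 2, when 1.45% of all genes were called in either direction. It became 12 with DESeq2 (6.89% of all genes), 4 without the filter (1.44%), 4 with a stricter filter of 10 counts in all libraries (3.20%), 4 with legacy=FALSE (3.21%), 1 with library totals only (1.39%), 1 with Gl2-KD libraries alone (0.872%), 0 with RLE factors (1.32%) and 0 with no replicate block (0%), with a range of 0 to 3 over left-out libraries and experiments. With robust=TRUE it stayed at 2 (1.77%), but these were *Mybl1* and *Stag3*, and *Sycp3* was no longer called. For time in Srrm2-KD the count was 1 (0.551%). It became 11 with DESeq2 (5.47%), 2 with limma-voom (1.33%), 2 with the stricter filter (1.18%), 2 with legacy=FALSE (1.44%), 0 with RLE factors (0.412%), 0 with Srrm2-KD libraries alone (0%) and 0 with no replicate block (0%), with a range of 0 to 2. With robust=TRUE the 1 gene was *Mov10l1* in place of *Sycp3* (0.706%). The cause was not tested; several alternatives use fewer genes or samples. The 783 alternative values covered 31 fold changes. These were the 5 with the smallest p in each comparison, and in some also *Ddx4*, *Mael*, *Sycp3*, *Mybl1* or *Stag3*. None changed sign, but most were picked on p and refitted on shared libraries. So this does not measure how stable the signs of the genes are. The 3 called fold changes stayed called in 28 of 75 alternative values and lost the call in 47, and the others gained a call in 26 of 708. With 3 libraries per group, and with some genes below 1 CPM, small changes cannot be shown. Even the siRNA target *Srrm2* was not called by the main fit at either time. The paper, whose edgeR fit adjusted for processing date rather than for experiment, reports *Srrm2* as significantly lower at 24 h and at 72 h. It also lists other differentially expressed genes at 72 h, where the main fit here called 0% of all genes. The reason for this difference between the fits was not tested. So a count of 0 called does not show that these genes were unchanged.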
